A study of Canis lupus familiaris with 2 samples.

Results

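Enzymes that make, salvage or break down nucleosides were compared between a doxorubicin-resistant canine lymphoma line and its parent: deoxycytidine kinase (DCK), adenosine deaminase (ADA), the ecto-5'-nucleotidase CD73 (NT5E) and the p53-inducible subunit of ribonucleotide reductase (RRM2B). These 4 genes were chosen by name, with earlier results of the same comparison known, from a deposited table of 1729 rows. All 4 had a row. CLBL-1 8.0 was derived from the canine diffuse large B-cell lymphoma line CLBL-1 and maintained under 8 µM doxorubicin hydrochloride, and CLBL-1 is the parental line, labelled as having no chemoresistance. Both lines are labelled as lymph node cells and were grown with 10% fetal bovine serum. Doxorubicin is an anthracycline that binds DNA and poisons topoisomerase II. Each line was represented by 1 sample, so no difference below has a replicate check and none was tested. Whether the drug was present when RNA was taken is not stated, so drug exposure and resistance cannot be told apart. In bulk RNA, fewer cells that express a gene and less RNA per cell cannot be told apart either.

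Cells obtain deoxynucleotides for DNA along a pair of routes. In one, ribonucleotide reductase converts ribonucleotides to deoxynucleotides. Its small subunit comes in a form tied to the S phase, RRM2, and in a form known in human cells to be induced by p53 after DNA damage, RRM2B. In the other, nucleosides are taken up and phosphorylated, and DCK does this for deoxycytidine, deoxyadenosine and deoxyguanosine. In human cells DCK also activates nucleoside drugs such as cytarabine and gemcitabine. Doxorubicin is not a nucleoside. Adenosine is handled by the remaining pair: NT5E is anchored on the cell surface and releases adenosine from extracellular AMP, while ADA turns adenosine and deoxyadenosine into their inosine forms. Lymphocytes depend on ADA in humans, in whom its inherited loss causes severe combined immunodeficiency.

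DCK, ADA and RRM2B were lower and NT5E was higher in CLBL-1 8.0 than in CLBL-1. DCK, gene ID 482188, was at 73.0 in CLBL-1 8.0 against 241 in CLBL-1, which left 30.3% of the parental value. ADA, gene ID 477236, was at 6.20 in CLBL-1 8.0 against 22.7 in CLBL-1, or 27.3% of the parental value. These are the salvage kinase and the purine deaminase, and both were more than 3-fold lower in the resistant line. RRM2B, gene ID 481988, was at 2.46 in CLBL-1 8.0 against 6.31 in CLBL-1, or 39.0% of the parental value. NT5E, gene ID 474984, went the other way, at 28.7 in CLBL-1 8.0 against 7.96 in CLBL-1, a 3.60-fold higher value. The values are the authors' abundances, whose unit is not stated, so they are compared between the lines and not between genes.

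**Figure D1:**
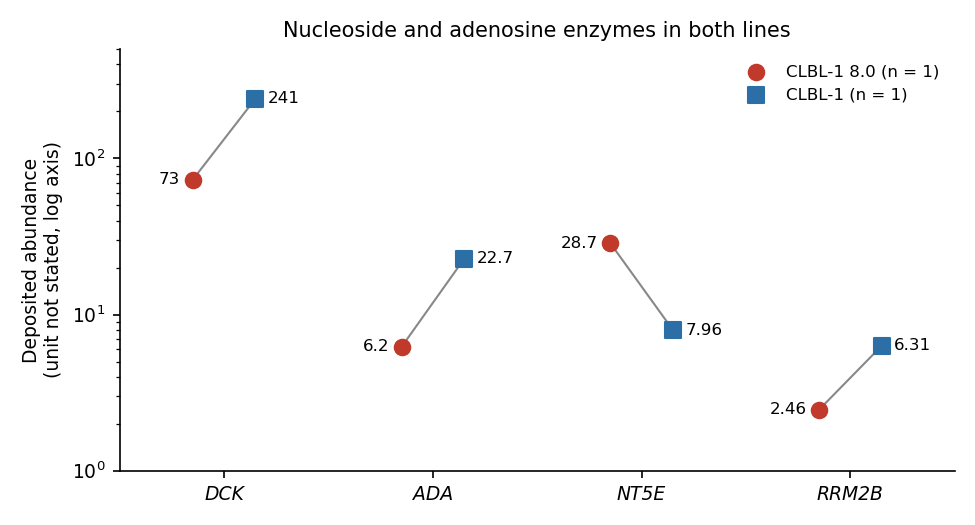
Deposited abundance (unit not stated, logarithmic axis) of DCK, ADA, NT5E and RRM2B in CLBL-1 8.0 (red circles, left) and CLBL-1 (blue squares, right), 1 sample per line, with each value printed beside its point. DCK, ADA and RRM2B are lower in CLBL-1 8.0 (73.0, 6.20 and 2.46), and NT5E is higher (28.7).

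On the scale log2((CLBL-1 8.0 + 1)/(CLBL-1 + 1)), on which genes with low values appear less different than they are, DCK had a difference of -1.71, ADA of -1.72, RRM2B of -1.08 and NT5E of 1.73. On this scale DCK, ADA and NT5E differed by close to the same size and RRM2B by less, but the order depends on scaling. After centring on the all-row median the differences were -2.44 for DCK, -2.45 for ADA, -1.81 for RRM2B and 0.996 for NT5E, and with equal upper quartiles they were -2.03, -2.03, -1.36 and 1.44 for the same genes. The authors' deposited table gives log2 fold changes without a pseudocount of -1.72 for DCK, -1.87 for ADA, -1.36 for RRM2B and 1.85 for NT5E. How low values are treated changed whether RRM2B passed 2-fold: its difference was -0.60 when the pseudocount was 5 and -0.39 when it was 10, under 2-fold in both cases. ADA stayed just past 2-fold, at -1.01 when the pseudocount was 10. The larger value of RRM2B, 6.31, lay near the lowest such value of any row, 5.01.

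Of the 4 genes, 3 were lower in CLBL-1 8.0, against 34.8% of all 1729 rows, and 1 was higher, against 65.2%. All 4 differed at least 2-fold on the log2(value + 1) scale, against 24.1% of all rows for a higher value (416 rows) and 14.4% for a lower one (249 rows). NT5E was just short of that limit after centring, at 0.996. With the parental values scaled by 1.25 so that the upper quartiles of both lines were equal, the same limit was passed by 216 higher and 533 lower rows. The genes were chosen with these values, and the rows themselves are a selection by the authors in which the smallest fold is 1.59, so nothing is read from these shares. Among the 602 lower rows, 78 had a lower difference than ADA, 79 a lower one than DCK and 208 a lower one than RRM2B. Among the 1127 higher rows, 91 had a larger difference than NT5E. The 4 genes were therefore well away from the smallest differences in the table and not among its extremes, which reach -10.2 and 8.33.

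**Figure D2:**
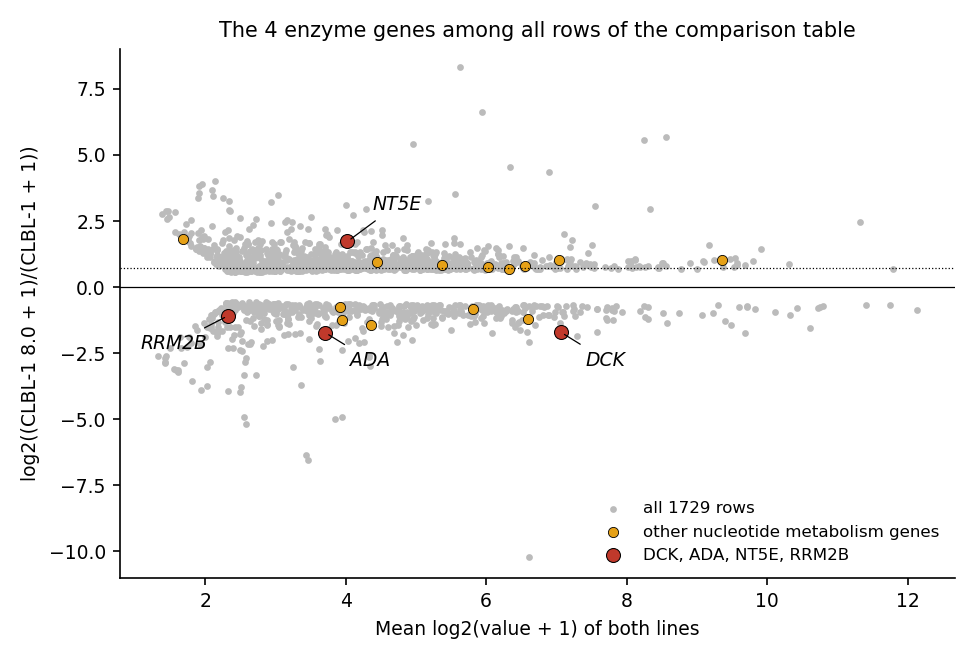
Difference between the lines, log2((CLBL-1 8.0 + 1)/(CLBL-1 + 1)), against the mean log2(value + 1) of both lines for all 1729 rows (grey), the other listed nucleotide metabolism genes (orange) and the 4 enzyme genes (red, named), with the median of all rows, 0.73, as a dotted line. The empty band around 0 is the authors' selection of rows, and the 4 genes lie between -1.72 and 1.73.

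The rest of nucleotide metabolism was looked up with 11 lists of 140 genes, of which 17 had a row, 9 higher and 8 lower in CLBL-1 8.0. The median difference of these 17 rows was 0.70, against 0.73 over all rows. With 9 higher and 8 lower rows, the former is the smallest of the higher differences, that of IMPDH1. The authors' selection left out rows with small differences, so nothing is read from the closeness of these medians. Without DCK, ADA, NT5E and RRM2B, 8 of 13 were higher and 5 lower, against 65.2% and 34.8% of all rows. Not analysed here, for want of a row, were RRM1, RRM2, ADK, the nucleoside transporters and the cytosolic nucleotidases, among others. The other subunits of ribonucleotide reductase and the uptake step before DCK therefore have no value.

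Within nucleoside salvage, the kinases listed stood in opposite directions. DGUOK, the mitochondrial deoxyguanosine kinase that shares purine deoxynucleosides with DCK as substrates, was at 54.3 in CLBL-1 8.0 against 29.9 in CLBL-1, while DCK was lower. NME1, a nucleoside diphosphate kinase that acts at the last phosphorylation step, was at 937 in CLBL-1 8.0 against 454 in CLBL-1. A lower value among listed kinases was thus found for DCK and not for these others. After centring on the all-row median, DGUOK was at 0.11 and NME1 at 0.31. That median, 0.73, comes from rows selected for a fold of at least 1.59, most of them higher. Centring on it therefore brings any modestly higher row near 0, and nothing is read from such small centred values here or below. For the making of deoxynucleotides, SHMT1, a folate enzyme that feeds thymidylate synthesis, was at 84.4 in CLBL-1 8.0 against 49.0 in CLBL-1. This stood beside the lower RRM2B, and SHMT1 was at 0.041 after the same centring.

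Among enzymes that act on adenosine and its nucleotides, AMPD2, an AMP deaminase, was at 123 in CLBL-1 8.0 against 69.6 in CLBL-1, the direction opposite to that of ADA. AHCYL1 is listed as a relative of the enzyme that splits S-adenosylhomocysteine into homocysteine and adenosine, and is not taken here to act on adenosine itself. It was at 187 in CLBL-1 8.0 against 91.7 in CLBL-1. AMPD2 and AHCYL1 both lie on chromosome 6, on which 214 of 227 listed rows were higher. After centring on the all-row median, AMPD2 was at 0.084 and AHCYL1 at 0.29. The other surface enzymes of the ectonucleotidase list, among them ENTPD1 and CD38, had no row, so NT5E stood alone there.

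Of 23 genes looked up as receptors for adenosine and nucleotides, or for a name or tie like theirs, 5 had a row. In CLBL-1 8.0, 2 were higher and 3 lower. Over all rows 34.8% were lower. The adenosine receptor ADORA2B, which signals through cyclic AMP, was at 41.1 in CLBL-1 8.0 against 74.4 in CLBL-1. The ATP-gated channels P2RX1 and P2RX4 were also lower, P2RX1 at 9.04 in CLBL-1 8.0 against 22.9 in CLBL-1 and P2RX4 at 10.7 in CLBL-1 8.0 against 18.5 in CLBL-1. The 2 higher rows, P2RY8 and P2RY10, are in the list by name alone and are not taken here as receptors for nucleotides. P2RY8 was at 5.06 in CLBL-1 8.0 against 0.706 in CLBL-1, and P2RY10 at 29.1 in CLBL-1 8.0 against 14.6 in CLBL-1. The larger value of P2RY8 lay near the lowest such value of any row, 5.01. Centring on the all-row median gave -1.57 for ADORA2B, -1.98 for P2RX1 and -1.47 for P2RX4. It gave 1.10 for P2RY8 and 0.21 for P2RY10. The adenosine receptor with a row was thus lower in the line in which NT5E was higher and ADA lower. The surface protein CD26 (DPP4), which binds ADA in human cells, had no row.

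In de novo synthesis, PFAS, which catalyses a step of the purine ring, was at 62.8 in CLBL-1 8.0 against 145 in CLBL-1. IMPDH1, which commits IMP to guanine nucleotides, was at 101 in CLBL-1 8.0 against 61.8 in CLBL-1, a difference of 0.70 that turned to -0.029 after centring on the all-row median. CTPS2, one of the CTP synthases, was at 11.6 in CLBL-1 8.0 against 32.6 in CLBL-1, the largest decrease of the 13 other listed genes at -1.42. The same centring enlarged the decreases, to -1.93 for PFAS and -2.15 for CTPS2, since it lowers every row by the same amount. PFAS, ADORA2B and SHMT1 lie on chromosome 5, on which 97 of 153 listed rows were lower. IMPDH1 lies on chromosome 14, on which 43 of 46 listed rows were higher.

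**Figure D3:**
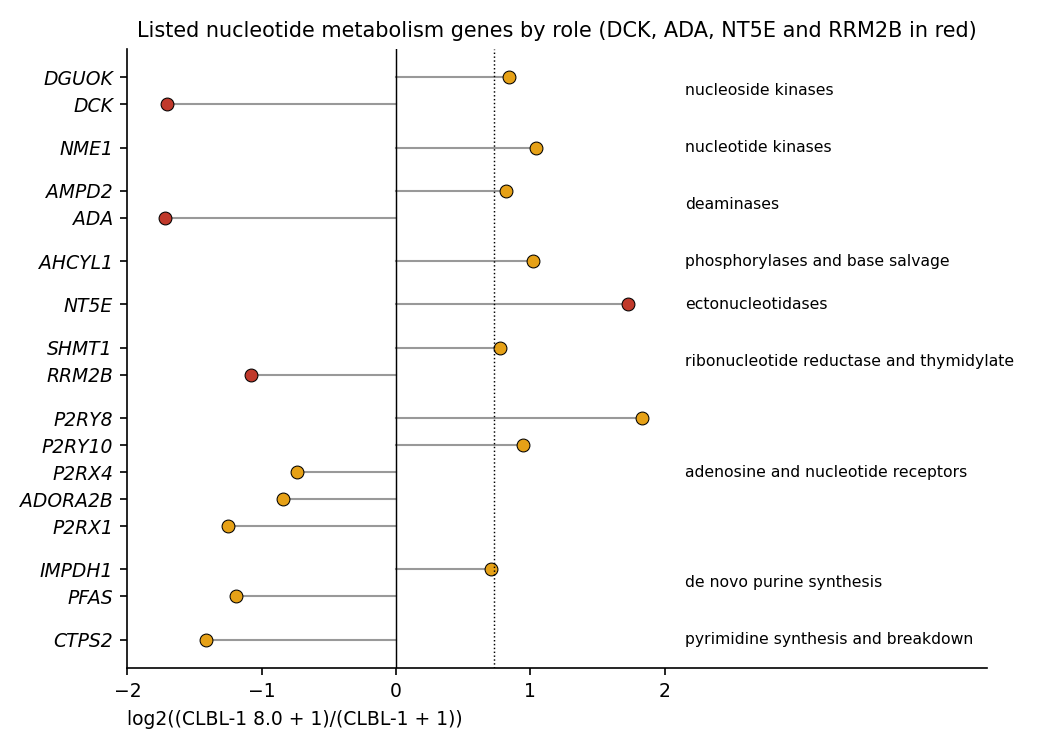
Difference between the lines, log2((CLBL-1 8.0 + 1)/(CLBL-1 + 1)), for the 17 listed nucleotide metabolism genes grouped by role, with DCK, ADA, NT5E and RRM2B in red and the median of all rows, 0.73, as a dotted line. Of the 17 genes, 9 lie to the right of 0 and 8 to the left, and the nucleoside kinases, the deaminases and the reductase and thymidylate genes each hold 1 gene on either side.

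Positions are as deposited, on CanFam3.1 per the submitters' processing notes. The share of higher rows over the whole table, 65.2%, is the background for the counts along chromosomes below. DCK lies on chromosome 13 from 60206742 to 60236338 on the plus strand, and RRM2B on the same chromosome from 3774725 to 3838576 on the minus strand. They lie 56.4 Mb apart, near opposite ends of the listed rows. Apart from DCK, 15 of the other 22 rows of chromosome 13 were higher and 7 lower, and the same counts hold apart from RRM2B. The listed rows around them were of both directions, and they reach 33906.8 kb from RRM2B and 23171.3 kb from DCK. They therefore cannot show whether genes close to either share its direction. Of the 12 rows nearest to RRM2B, 2 before it and 10 after it, 9 were higher, including its named neighbours RGS22, at 5.97 in CLBL-1 8.0 against 3.53 in CLBL-1, and OXR1, at 34.9 in CLBL-1 8.0 against 21.7 in CLBL-1. Of the 11 rows nearest to DCK, 7 were higher. On chromosome 13, 1 row had a lower difference than DCK: SLC30A9, at 14.01 in CLBL-1 8.0 against 52.1 in CLBL-1. The nearest row with a gene symbol before DCK was HOPX, at 103 in CLBL-1 8.0 against 53.7 in CLBL-1, and it lay 11348.7 kb away.

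ADA lies on chromosome 24 from 32083786 to 32119810 on the minus strand. Of the other 34 rows of the chromosome, 26 were higher and 8 lower. The 10 rows before ADA held 8 higher ones, and ADA opened a run of 4 consecutive lower rows. The next row, SLPI, an inhibitor of serine proteases 446 kb away, was at 0.194 in CLBL-1 8.0 against 97.8 in CLBL-1. The row before it, PKIG, which encodes an inhibitor of protein kinase A, ended 0.479 kb from ADA on the opposite strand and was at 12.3 in CLBL-1 8.0 against 3.98 in CLBL-1. The 3′ ends of ADA and PKIG face each other, and the labels do not say whether counting used strand, so reads at these ends may not have been assigned to the right gene. The direction of ADA was opposite to that of PKIG.

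NT5E lies on chromosome 12 from 45491028 to 45520019 on the plus strand. Of the other 67 rows of the chromosome, 45 were higher and 22 lower, and 3 had a larger difference than NT5E. Of the 20 rows nearest to it, 12 were higher, so rows of both directions surrounded it. These rows reach up to 30843.7 kb from NT5E. The nearest row with a gene symbol before NT5E was LCA5, a ciliary gene, at 16.2 in CLBL-1 8.0 against 9.70 in CLBL-1. The row after NT5E, a lysine transfer RNA gene 32.4 kb away, was listed at 0 in CLBL-1 8.0 against 6.20 in CLBL-1. This is a kind of RNA that poly-A selection is not made to retain. No other row of the table overlapped any of the 4 genes. In the RefSeq gene table of the dog assembly UU_Cfam_GSD_1.0, RRM2B overlaps a long noncoding RNA gene, LOC102156908, and the other 3 genes overlap none.

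**Figure D4:**
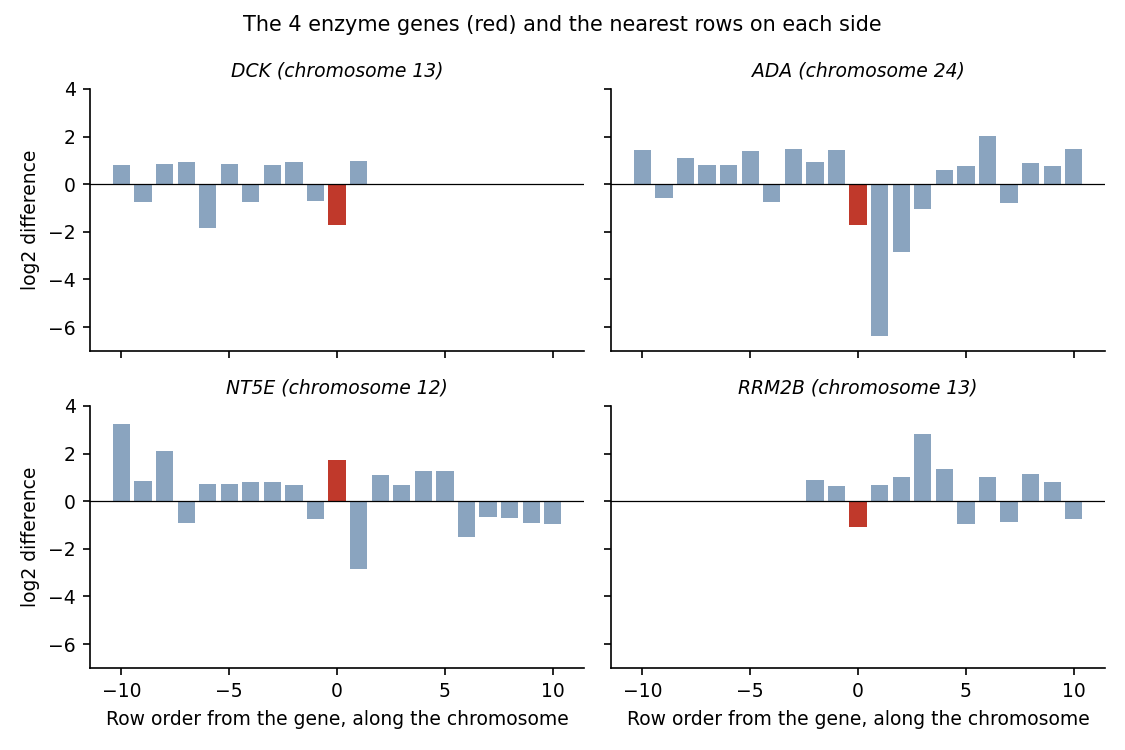
Difference between the lines, log2((CLBL-1 8.0 + 1)/(CLBL-1 + 1)), for DCK, ADA, NT5E and RRM2B (red bars) and up to 10 listed rows on each side in chromosome order (grey-blue bars), with fewer bars where the listed rows of the chromosome end. ADA is followed by 3 more lower rows, the first of them at -6.37, while DCK, NT5E and RRM2B stand among rows of both directions.

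The deposited term tables placed the 4 genes unevenly. In the authors' deposited table of 118 ontology terms, ADA was in 6, RRM2B in 3, NT5E in 1 and DCK in none. In the authors' deposited table of 50 pathways, RRM2B was in 1 and the others in none, so no listed term gathers these enzymes by their metabolism. The pathway with RRM2B was p53 signalling, with 12 genes and a p-value of 0.0171 in the authors' deposited table. Of the 12, 7 were higher, against 65.2% of all rows, and 5 lower in CLBL-1 8.0. RRM2B had the largest decrease on the log2(value + 1) scale, at -1.08. That rank depends on the pseudocount, since RRM2B had the lowest values of the 5. Its difference was -0.60 when the pseudocount was 5.

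The higher members of that pathway include the cell cycle inhibitor CDKN1A, at 113 in CLBL-1 8.0 against 49.4 in CLBL-1, and the pro-apoptotic PMAIP1, at 35.8 in CLBL-1 8.0 against 13.7 in CLBL-1, both known in human cells to be induced by p53. Genes known as p53 targets were thus found in both directions, since STEAP3 and RCHY1, also known in human cells to be induced by p53, were lower like RRM2B. From a list of 31 human p53 targets that leaves out RRM2B, CDKN1A and PMAIP1 were the 2 with a row. SERPINB5, a serpin, was at 5.94 in CLBL-1 8.0 against 1.02 in CLBL-1, and TSC2, which restrains mTORC1, at 35.1 in CLBL-1 8.0 against 16.3 in CLBL-1. Besides RRM2B, the lower members were the mitotic cyclins CCNB1, at 162 in CLBL-1 8.0 against 271 in CLBL-1, and CCNB2, at 64.6 in CLBL-1 8.0 against 109 in CLBL-1, the ubiquitin ligase RCHY1, at 18.5 in CLBL-1 8.0 against 35.4 in CLBL-1, and the metalloreductase STEAP3, at 23.5 in CLBL-1 8.0 against 41.6 in CLBL-1. They encode proteins of mitosis, p53 turnover and iron handling.

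Among ADA's terms, the lysosome term had 17 genes and a p-value of 0.0478 in the authors' deposited table. In it, 16 genes were higher in CLBL-1 8.0 and ADA was the lower one. Over all rows 65.2% were higher, which is also the background for the terms below. The higher genes include the hydrolase GUSB, at 72.3 in CLBL-1 8.0 against 29.5 in CLBL-1, and the cathepsin CTSS, at 60.4 in CLBL-1 8.0 against 33.0 in CLBL-1. ADA was also the 1 lower gene of 6 in lung alveolus development. In positive regulation of calcium-mediated signalling, 3 of 4 genes were lower: ADA, P2RX4 and FCER1A, the alpha chain of the IgE receptor, at 1.26 in CLBL-1 8.0 against 10.1 in CLBL-1. The fourth, TRAT1, an adaptor of the T cell receptor, was at 20.6 in CLBL-1 8.0 against 2.72 in CLBL-1. On the external side of the plasma membrane, 13 of 20 genes were higher, near the share over all rows, and 7, with ADA, lower.

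**Figure D5:**
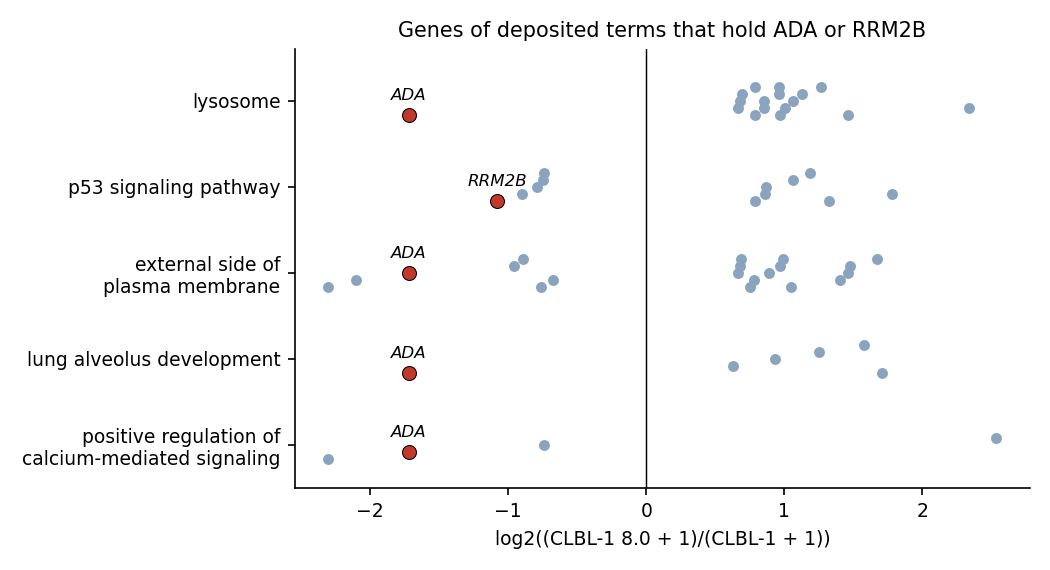
Difference between the lines, log2((CLBL-1 8.0 + 1)/(CLBL-1 + 1)), for every gene of 5 deposited terms that hold ADA or RRM2B (red, named), with the other genes in grey-blue and a small vertical offset to part the points. ADA is the one point left of 0 in the lysosome and lung alveolus terms, and RRM2B is the leftmost point of p53 signalling.

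The rows most like each gene were taken as those with the shortest distance to it on the log2(value + 1) values of both lines, so likeness rests on 2 samples. For DCK they were TUBB6, a tubulin, at 81.0 in CLBL-1 8.0 against 212 in CLBL-1, BIRC5, which encodes survivin, at 81.5 in CLBL-1 8.0 against 297 in CLBL-1, and OLA1, an ATPase, at 83.3 in CLBL-1 8.0 against 185 in CLBL-1. Their distances of 0.24 to 0.43 were larger than those of the rows given for RRM2B, 0.028 and 0.047, so DCK had no close match. For RRM2B the rows were IDNK, a gluconokinase, and FAM172A. For ADA they were C4H5orf58, ALDH4A1, a mitochondrial dehydrogenase, and PTPRD, a receptor phosphatase, at distances of 0.13 to 0.28. For NT5E they were PLPPR1, TSPAN13, a tetraspanin, and SNAI2, a transcriptional repressor, at distances of 0.14 to 0.20.

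Few markers of the labelled cell type and of other cell types had a row. Of 10 B cell markers, CD37 was listed, at 26.6 in CLBL-1 8.0 against 50.4 in CLBL-1. The T and NK cell list had GZMA, at 47.1 in CLBL-1 8.0 against 23.5 in CLBL-1, and the myeloid list had FCER1G, at 14.01 in CLBL-1 8.0 against 7.74 in CLBL-1. Further genes known from T cells appear in the terms above and were chosen after their values were seen: TRAT1, higher as given, the costimulatory receptor ICOS, at 7.67 in CLBL-1 8.0 against 2.28 in CLBL-1, and the interleukin-2 receptor chains IL2RA, at 81.8 in CLBL-1 8.0 against 25.03 in CLBL-1, and IL2RB, at 31.5 in CLBL-1 8.0 against 18.3 in CLBL-1. These genes and GZMA were higher in CLBL-1 8.0, as were 65.2% of all rows. Since the term genes were picked with their values known, nothing is read from the shared direction. The stromal and epithelial list had EPCAM, at 2.07 in CLBL-1 8.0 against 5.26 in CLBL-1. Their part in the differences of the 4 enzyme genes was not tested.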

How the data were processed

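Poly-A-selected RNA of both lines, taken from 3 dishes per the labels' protocols, was sequenced; whether dishes were pooled is not stated. The submitters' processing notes name HISAT2, StringTie and CanFam3.1; versions and settings, and any use of strand, are not stated there. The deposited abundance signal per gene has no stated unit and may be FPKM or TPM. Its sums over the 1729 selected rows, 120585 in CLBL-1 8.0 and 111082 in CLBL-1, are not library totals, so depth is unknown and no interval is given. The deposited log2 fold changes are the authors', per the file headers, and equal the log2 ratio of the columns without a pseudocount to within 1e-10 in 1720 rows. Gene counts and p-values of terms are the authors', per the file headers; their test, background and adjustment are not given. The column CLBL-8 was matched to CLBL-1 8.0.

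Differences were log2((CLBL-1 8.0 + 1)/(CLBL-1 + 1)) with no filter, computed in Python 3.11.15 with pandas 2.3.3 and NumPy 2.4.6 and tested on simulated data. With 1 sample per line no test was made. The enzymes and lists were chosen with earlier results of these data known. Named were the 4 enzymes, all listed genes of the lists, for each enzyme the 3 rows nearest in pattern and the next row with a symbol on either side, and terms that hold an enzyme. SLC30A9, examples of term genes and the NUDT, ADCY and PDE genes were chosen after their values were seen. A row that the rule takes is not reported here. Of 1707 gene IDs, 1605, including the 4 enzymes, matched the reference table, which served for names and overlaps.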

Additional observations from a re-analysis of the deposited data

How the results depend on the processing

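The 4 enzyme genes kept their direction with upper-quartile scaling and with centring on the median of all rows; a pseudocount cannot change a direction. A value was taken to have moved when it changed by more than 1.5-fold. With a pseudocount of 10 the differences were -1.01 for ADA, 1.11 for NT5E and -0.39 for RRM2B, the 3 genes with low values. Centring gave -2.44 for DCK, -2.45 for ADA, 0.996 for NT5E and -1.81 for RRM2B, since it lowers every value by 0.73. Requiring 10 or more in either line left 2 lower enzyme genes, without RRM2B. Leaving out the 4 enzymes left 5 lower genes in the nucleotide metabolism lists. Rows at least 2-fold higher numbered 197, 107 and 216 with a pseudocount of 5, of 10 and with upper-quartile scaling, and rows at least 2-fold lower 154, 86 and 533. No paired analysis was possible because each line has 1 sample, which also leaves no replicate to leave out. Depth is unknown, so it is not known how many reads stand behind the values of RRM2B.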

Other observations

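Further genes were taken by the names of families tied to nucleotides, after their values were seen. The NUDT family, named for hydrolases that clear nucleoside diphosphate derivatives, had 7 rows, 5 higher and 2 lower in CLBL-1 8.0. These rows were matched by name, and not every one need be such a hydrolase. Over all rows 65.2% were higher. The median difference of the family was 0.71 on the log2(value + 1) scale against 0.73 over all rows. Because the authors' selection left out rows with small differences, nothing is read from the closeness of these medians. NUDT8 was at 41.9 in CLBL-1 8.0 against 19.9 in CLBL-1 and NUDT3 at 47.7 in CLBL-1 8.0 against 23.0 in CLBL-1. NUDT16, known in human cells as a phosphatase of inosine diphosphates, was at 24.9 in CLBL-1 8.0 against 14.9 in CLBL-1, a difference of 0.70 that lies below the median of all rows. NUDT9, an ADP-ribose hydrolase, was lower, at 37.8 in CLBL-1 8.0 against 82.8 in CLBL-1. It lies on chromosome 32, on which 25 of 31 listed rows were lower.

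Enzymes of cyclic AMP, the messenger of adenosine receptors, were listed in both directions. The adenylate cyclase ADCY7 was at 4.61 in CLBL-1 8.0 against 21.1 in CLBL-1, and ADCY9 was at 12.5 in CLBL-1 8.0 against 6.88 in CLBL-1. The phosphodiesterase PDE4D, which breaks down cyclic AMP, was at 6.57 in CLBL-1 8.0 against 1.51 in CLBL-1, while PDE1A was at 0.0706 in CLBL-1 8.0 against 31.3 in CLBL-1. PDE1A lies on chromosome 36, on which 45 of 46 listed rows were lower. None of these differences has a replicate check.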
